A study of Caenorhabditis elegans with 12 samples.

Results

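The 3 gonad samples of the P0 generation, of 12 samples in all, were described by themselves: which genes and gene families gave many reads, few reads or none in gonads of adult *C. elegans* hermaphrodites. They are the samples labelled *set-2/qC1* P0 (strain PFR541), replicates 1 to 3. These heterozygous animals had 1 chromosome III with the deletion allele *set-2*(*bn129*) and 1 that was the balancer *qC1*, named *qC1*(*qIs26*) in the study's methods, and were grown at 25°C and dissected on the first day of adulthood. The other 9 samples were homozygous descendants (F2 fertile, F4 fertile and F4 sterile, all *set-2*(*bn129*)) and serve below only to check the label. SET-2 is the enzyme of the SET1/COMPASS complex that methylates lysine 4 of histone H3. P0 animals were the starting point of each of 3 lineages, so each replicate is a pool of gonad arms from its own lineage. No P0 sample is wild type, and chromosome III is present in 2 versions in all of them.

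The adult hermaphrodite gonad is a tube in which germ cells are ordered by age. Stem cells divide at the distal end under Notch signalling from the distal tip cell, their descendants pass through meiosis, and oocytes grow at the proximal end and fill with maternal RNA and protein. By adulthood sperm have already been made and stored. A thin somatic sheath surrounds the germ cells, and the yolk that oocytes take up is made in the intestine. The X chromosome is known to be largely silent in most germ cells of this species. The arms were cut at the bend, so the most proximal part of each arm was not necessarily included. In pools of whole tissue, fewer cells of a type and less RNA per cell cannot be told apart.

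Reads were counted on 45461 features, of which 19224 are protein-coding genes in the current gene models. The totals on genes were 7728189, 3456068 and 4348260 in replicates 1, 2 and 3. A level in CPM is the count of a feature per 1000000 counts on genes of that library. Long transcripts give more reads per molecule. Paralog pairs and the median levels of chromosomes were therefore compared in TPM, which divides by exonic length and was computed over protein-coding genes. Orders given in CPM, such as those within lists and families, are not corrected for length. Values are given as the mean ± SD of the 3 samples (n = 3). Within a library, 3 counts correspond to 0.388, 0.868 and 0.6899 CPM, and a count of 0 allows a level up to these values by counting error alone. *set-2* itself (chromosome III, 4922391 to 4930170 in the deposited annotation, which follows WS220) was at 171, 191 and 186 CPM, above the 9 homozygous samples, which lay between 121 and 148 CPM.

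Most annotated genes gave almost no reads, and a small number gave most of them. Features with a mean of at least 100 CPM were classed as abundant, and the 2324 of them held 83.3% ± 0.114 of the counts. Another 3260 features lay from 10 to 100 CPM and 2823 from 1 to 10 CPM. A further 3782 were under 1 CPM with more than 3 counts in all, and 33272 had at most 3 counts in the 3 libraries together, 25429 of them none. Of the 19224 protein-coding genes, 7768 (40.4%) reached 1 CPM and 2264 (11.8%) reached 100 CPM, while 8356 had at most 3 counts and 3006 had 0. These shares are the background for every family and list below. The abundant protein-coding genes had a median exonic length of 2284 bases, against 1007 bases for the genes at the floor. CPM grows with length, so the classes are not free of it.

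The counts were led by the machinery of protein synthesis. *eef-1A.1* (chromosome III, 6969971 to 6971948), the elongation factor that brings aminoacyl-tRNA to the ribosome, was the most abundant feature at 15279, 14589 and 14496 CPM. It was also the highest gene per length, at 13499.5 ± 297 TPM. *eef-2*, the factor that moves the ribosome along the mRNA, followed at 7389.6, 7287 and 6770.1 CPM (3584 ± 199 TPM). Both genes differed between the samples by a small part of their level. The ribosomal protein genes *rpl-3* (4065 ± 203 CPM), *rpl-4* (3729 ± 65.6 CPM) and *rla-0* (3451 ± 181 CPM), *eef-1G* (2549.8 ± 56.4 CPM), the poly(A)-binding protein gene *pab-1* (2874 ± 58.3 CPM) and *rack-1* (2722 ± 241 CPM), whose product sits on the small ribosomal subunit, were also among the 20 most abundant features.

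Chaperones, eggshell components and RNA-binding proteins filled most of the other places among the 20. *hsp-1*, a cytosolic Hsp70, was at 5933, 5672 and 5967 CPM and *daf-21*, the Hsp90 gene, at 5271, 5265 and 5584 CPM. *cbd-1*, which encodes a chitin-binding protein of the eggshell, was at 5808, 5696 and 5733 CPM, and its SD of 56.6 CPM was small against that level. The eggshell proteoglycan genes *cpg-1* and *cpg-2* stood at 3107 ± 206 and 2571 ± 141 CPM. *cgh-1*, a DEAD-box RNA helicase of germline RNA granules, was at 3208, 3414 and 3225 CPM, the Y-box RNA-binding protein gene *cey-2* at 2481, 2693 and 2642 CPM and *vig-1* at 2659.6, 2588 and 2520.1 CPM. *eel-1*, a HECT-type ubiquitin ligase, reached 3814, 4152 and 3969 CPM, but its merged exons span 13171 bases and its level per length was 424 ± 33.2 TPM. Per length *eel-1* therefore lay well under *cey-2*, at 3621 ± 278 TPM, although its reads were more numerous. The 20 most abundant features of the mean were nearly the same set in any single library, with 19 of the 20 found in each.

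The remaining 3 of the 20 were noncoding. *ZC155.8* (6878, 5546 and 6301 CPM) and *R144.15* (6466, 5151 and 6239 CPM), now named *srpr-2.1* and *srpr-2.2*, are genes for the RNA of the signal recognition particle, which directs secreted proteins to the endoplasmic reticulum. *rpr-1*, the RNA subunit of RNase P, was at 3608, 2482 and 3614 CPM. All 3 were lowest in replicate 2. A further signal recognition particle RNA gene, *B0285.12* (now *srpr-1.2*), was at 2569, 1769.6 and 1974 CPM and *mrpr-1*, the RNA of RNase MRP, at 1242, 701 and 1349 CPM, also with the lowest value in replicate 2. The copies are near-identical and only uniquely mapping reads were counted, so their levels are uncertain. Protein-coding genes held 95.8% ± 0.394 of the counts, ncRNA genes 2.03% ± 0.295, pseudogenes 0.811% ± 0.0213, snoRNA genes 0.462% ± 0.0977 and snRNA genes 0.116% ± 0.0238. The 15363 piRNA loci gave 628 counts in all, with 14892 of them at 0, and the 609 tRNA genes gave 113. The 19 rRNA genes gave 0, since rRNA was depleted and rRNA reads were removed before deposit. Libraries of this kind do not retain molecules as short as mature piRNAs. The highest features now classed as pseudogenes were *B0250.3* (734 ± 66.7 CPM), *C06A1.4* (726 ± 25.8 CPM) and *prg-2* (497 ± 49.8 CPM), the last a near-identical relative of the Piwi gene *prg-1*. *retr-1* (582 ± 59.7 CPM) was the highest of the features without a current gene model.

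Ranked per length, core histone genes took 8 of the first 10 places among protein-coding genes. After *eef-1A.1* came *his-48* at 9260.0 ± 1159 TPM, *his-58* at 7272 ± 726 TPM, *his-66* at 7229 ± 662 TPM, *his-46* at 6895 ± 1473 TPM, *his-45* at 6190.5 ± 573 TPM, *his-64* at 5964 ± 524 TPM, *his-56* at 5943 ± 813 TPM and *his-59* at 5938 ± 467 TPM. *rps-25*, a protein of the small ribosomal subunit, closed the 10 at 5814 ± 621 TPM. From *his-58* on, neighbours in that order differed by less than the larger of their SDs, and the 8 histone genes all lie on chromosome IV. Histone mRNAs lack a poly(A) tail and are retained by rRNA depletion. In all, 69 of 72 *his* genes reached 1 CPM and 35 reached 100 CPM, and together they held 3.21%, 2.75% and 3.28% of the counts. *his-70* and *his-73* had 0 counts, but 94.4% of *his-73* lies within *W09H1.4* on the same strand, so its 0 need not mean silence. The H3.3 gene *his-71*, which is X-linked, was at 0.681 ± 0.538 CPM while *his-72*, another H3.3 gene, was at 171 ± 18.4 CPM. Copies of the core histone genes are near-identical, so the reads of single members are uncertain. Among linker histones *hil-4* (567 ± 77.6 CPM) and *hil-5* (435 ± 19.9 CPM) were abundant and *hil-6* and *hil-7* were under 1 CPM. The centromeric H3 genes *hcp-3* and *cpar-1* were at 166 ± 11.8 and 65.3 ± 7.01 CPM, and the H2A.Z gene *htz-1* at 510.2 ± 31.5 CPM.

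Cytosolic ribosomal proteins were the largest family by reads. The 80 genes were taken by their names in the deposited annotation, so genes listed there by a sequence name, such as *F54D7.7* (now *rpl-41.2*), are not among them. They held 11.8%, 9.91% and 10.5% of the counts in replicates 1, 2 and 3, and 75 of the 80 were abundant. Their median was 1206 CPM and 3269 TPM, against 0.356 CPM and 0.402 TPM over all protein-coding genes. Replicate 1 gave the highest share and replicate 2 the lowest. The 5 members that were not abundant were *rpl-24.2* (58.9 CPM), the X-linked *rpl-11.2* (13.7 CPM) and *rpl-25.1* (2.62 CPM), and *rpl-16* and *rpl-42*, which had 0 counts. In the deposited coordinates 99.6% of *rpl-16* lies within *M01F1.3* on the same strand, and reads on both genes are dropped as ambiguous by the usual setting of the counter, so its 0 need not mean silence. No other feature overlaps *rpl-42*, but only uniquely mapping reads were counted, and whether its reads were lost in that way was not tested.

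**Figure D1:**
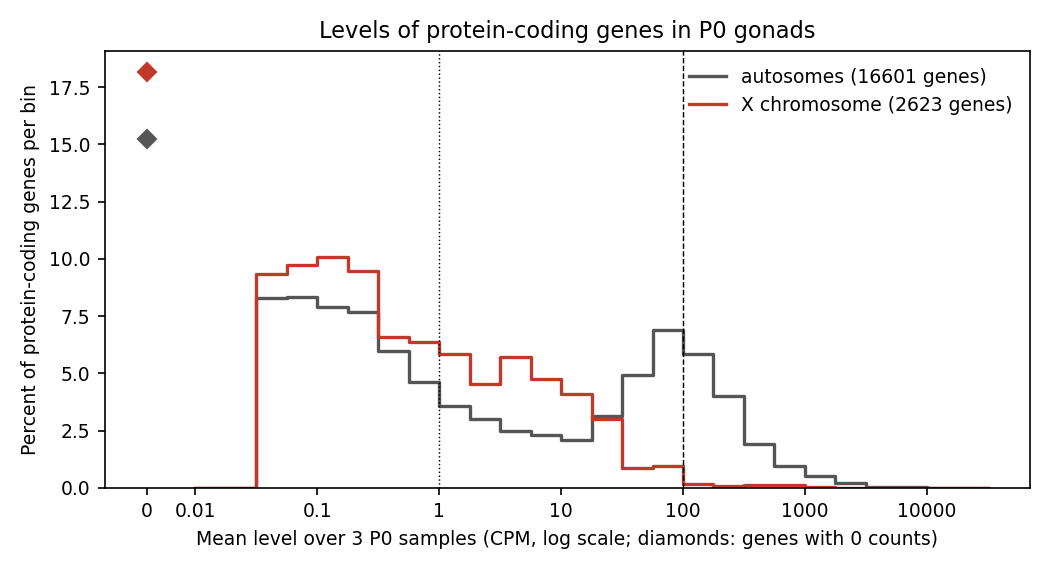
Distribution of the mean level over the 3 P0 samples (CPM, log scale) for protein-coding genes of the autosomes and of the X chromosome, as percent of the genes of each set per bin, with diamonds for genes with 0 counts, a dotted line at 1 CPM and a dashed line at 100 CPM. Autosomal genes form a group at low levels and another around 100 CPM, while 13 of 2623 X-linked genes reach 100 CPM.

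The chromosomes differed widely, and the X stood apart. It carries 13.6% of the protein-coding genes and gave 1.53%, 1.37% and 1.401% of the protein-coding counts in the 3 samples. Chromosome I gave 24.4% ± 0.107, III 23.5% ± 0.0848, IV 21.3% ± 0.218, II 16.04% ± 0.0816 and V 13.3% ± 0.03303. Only 13 of 2623 X-linked genes were abundant, 0.496%, against 2251 of 16601 autosomal genes, 13.6%. From 1 to 10 CPM the order was the opposite, with 20.9% of X-linked and 11.4% of autosomal genes. X-linked genes that were detected were thus mostly low. Among genes at 1 CPM or more the median level was 4.34, 4.02 and 4.33 TPM on the X and 49.5, 59.02 and 56.01 TPM on the autosomes, a ratio of 13.01 ± 1.63.

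At a limit of 1 CPM, detection alone did not set the X apart. The share of genes at 1 CPM or more was 30.3% ± 1.2002 on the X, above chromosome V at 25.15% ± 0.561 and below II at 41.3% ± 0.783, IV at 40.97% ± 0.645, I at 57.5% ± 0.453 and III at 60.3% ± 0.979. II and IV did not differ beyond their spread. The shares depend on the limit, and at 10 CPM they were 9.32% on the X and 30.7% on the autosomes together. Chromosome V holds most of the chemoreceptor and many other large families, and 2895 of its 4823 genes were at the floor. Its expressed genes had a median of 44.8 ± 4.48 TPM, near those of the other autosomes (51.9 to 58.6 TPM). Levels also differed along the autosomes. With each chromosome cut into 5 parts of equal length, 17.3% of autosomal genes in the central part were abundant and 8.54% and 10.8% in the outer parts. On the X the abundant genes numbered 3, 5, 4, 1 and 0 from the left to the right part.

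**Figure D2:**
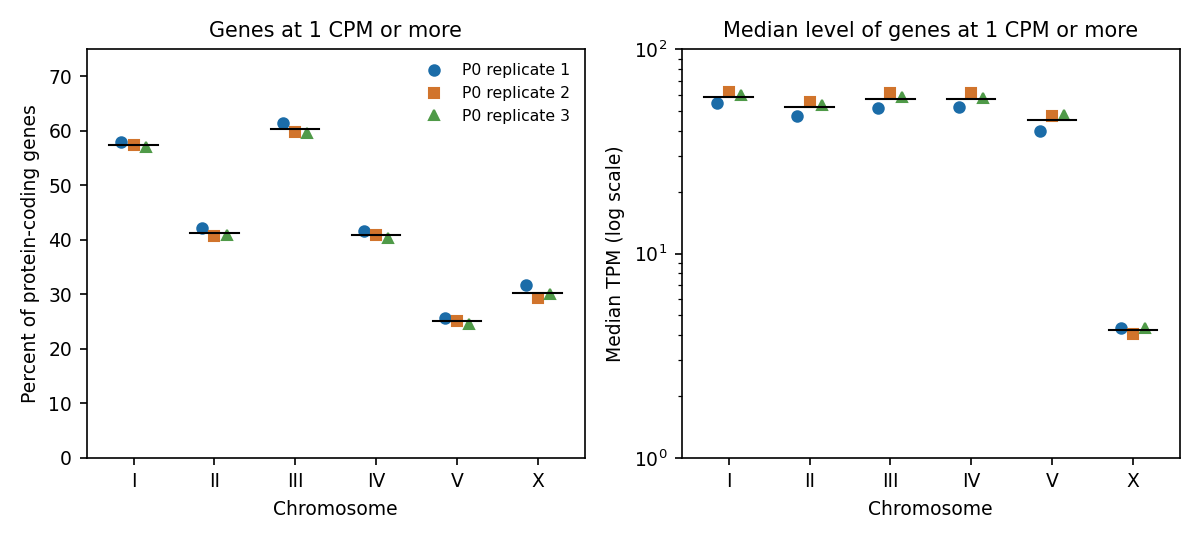
Left, percent of protein-coding genes at 1 CPM or more on each chromosome; right, median TPM of those genes on a log axis. Points are the 3 P0 samples and lines their means, and the X lies at a median of 4.23 TPM while the autosomes lie between 44.8 and 58.6 TPM.

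The most abundant protein-coding genes of chromosome I were *eef-2*, *rpl-4* and *rla-0*, those of III *eef-1A.1*, *rpl-3* and *cgh-1*, and those of IV *hsp-1*, *cbd-1* and *eel-1*. Chromosome II was led by *vig-1*, *rpl-10* (2294 ± 124 CPM) and *rpl-5* (2139 ± 32.5 CPM), and V by *daf-21*, *eef-1G* and *rpl-11.1* (2216 ± 182 CPM). On the X, 5 of the 10 leading genes were vitellogenin genes, which encode yolk proteins. *vit-2* was at 1061, 1261 and 984 CPM and ranked number 123 among all protein-coding genes. *vit-5* was at 655, 1030.4 and 767 CPM, *vit-4* at 588, 753 and 526 CPM, *vit-3* at 504, 687 and 481 CPM and *vit-1* at 294, 447 and 288 CPM. All 5 were highest in replicate 2. Together they made up 21.2%, 31.6% and 22.7% of the X-linked counts. The other 5 were *mrp-4*, an ABC transporter gene, at 654, 608 and 670.4 CPM, *C39D10.7* at 456, 329 and 377 CPM, *W07E11.1* at 267, 209 and 248 CPM, *Y73B3A.1* at 226, 205 and 208 CPM and *hsp-3*, which encodes the Hsp70 of the endoplasmic reticulum, at 172, 115.4 and 159 CPM. The germ granule gene *meg-1* (143 ± 9.95 CPM), *D1005.1* (129 ± 9.97 CPM) and the protein disulfide isomerase gene *pdi-2* (104 ± 8.505 CPM) completed the 13.

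In 6 pairs of an X-linked gene and an autosomal paralog, in which both members were detected, the autosomal member gave the higher level. *eef-1A.1* on III stood at 13466, 13811 and 13221 TPM and *eef-1A.2* on the X at 39.8, 40.2 and 36.3 TPM, a ratio of 349 ± 13.5. For ribosomal protein L11 the autosomal *rpl-11.1* was at 4749.8 ± 283 TPM and *rpl-11.2* at 25.96 ± 13.1 TPM, and for L25 *rpl-25.2* was at 2347 ± 444 TPM and *rpl-25.1* at 7.496 ± 2.38 TPM. The S-adenosylmethionine synthetase gene *sams-3* was at 175 ± 20.99 TPM and its X-linked paralog *sams-1* at 3.18 ± 1.08 TPM. *hpl-2*, a heterochromatin protein 1 gene, was at 85.2, 98.5 and 93.3 TPM and *hpl-1* at 5.25, 0.525 and 2.41 TPM, the latter from 24, 1 and 6 counts. Actin *act-1* was at 549.8 ± 33.1 TPM and *act-4* at 77.6 ± 10.6 TPM. *rpl-11.2* was the least steady of these, at 39.8, 13.8 and 24.3 TPM with the high value in replicate 1. A further pair goes the other way at the lowest levels, with X-linked *his-71* at 10, 1 and 2 counts and *his-70* on III at 0 in all 3 libraries. These pairs were picked by name and are too few to stand for the chromosome.

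Pairs with both members on autosomes were mostly closer. *fbf-1* and *fbf-2*, which encode PUF proteins that keep germ stem cells, stood at 69.1 ± 4.05 and 67.5 ± 3.45 TPM and did not differ beyond their spread. *cpg-1* and *cpg-2* stood at 2306 ± 71.7 and 2092 ± 61.5 TPM. The oocyte RNA-binding genes *oma-1* and *oma-2* were at 285 ± 13.4 and 488 ± 7.19 TPM, *mex-5* and *mex-6* at 609 ± 24.4 and 291 ± 4.38 TPM, and the germline helicase genes *glh-1* and *glh-2* at 201 ± 6.99 and 86.7 ± 4.95 TPM. Beta-tubulin *tbb-2* (1625 ± 24.06 TPM) exceeded *tbb-1* (959 ± 21.6 TPM), and alpha-tubulin *tba-2* (1488 ± 45.2 TPM) exceeded *tba-1* (784 ± 20.2 TPM). Wider gaps were seen for the cap-binding protein genes *ife-1* and *ife-5* (416 ± 11.22 and 24.05 ± 5.85 TPM) and for *rpl-24.1* and *rpl-24.2* (2437 ± 369 and 142 ± 3.28 TPM). The sperm pairs *gsp-3* and *gsp-4* and *alg-3* and *alg-4* were at or near 0 in all 3 samples. Reads of near-identical paralogs could be lost or split.

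**Figure D3:**
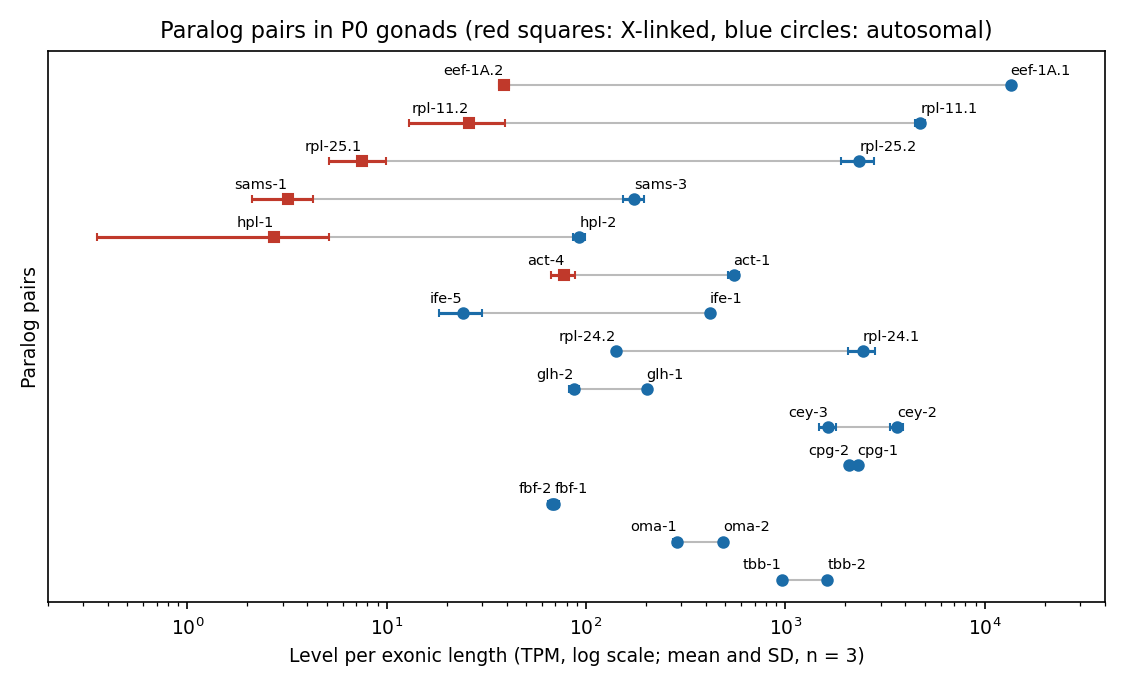
Levels of both members of 14 paralog pairs in TPM on a log axis, as mean and SD of the 3 P0 samples (where the SD would reach 0 or below, the bar stops short of 0), with red squares for X-linked and blue circles for autosomal genes. In the 6 plotted pairs with an X-linked member that member is the lower one, and *fbf-1* and *fbf-2* lie on top of each other.

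Genes that act in oocytes were the most uniformly high of the lists examined. All 33 genes of the maternal and oocyte list reached 1 CPM and 32 were abundant, with a median of 527 CPM, and the list held 2.96%, 2.804% and 2.89% of all counts. After *cbd-1*, *cpg-1* and *cpg-2* came the yolk receptor gene *rme-2* (2279, 2292 and 2240.0 CPM), the translational repressor gene *gld-1* (1446, 1444 and 1354 CPM), *puf-5* (1269.6 ± 77.7 CPM), the chitin synthase gene *chs-1* (1245 ± 53.1 CPM), *mex-5* (857 ± 43.04 CPM) and *egg-1* (853 ± 39.9 CPM). *spn-4* (709.7 ± 38.9 CPM), *pos-1* (689 ± 58.4 CPM) and *pie-1* (129 ± 0.386 CPM), whose proteins act in the early embryo, were present in all 3 libraries. *nos-2*, at 85.9, 65.7 and 95.7 CPM, was the single member under 100 CPM. *C44B12.1* (*perm-2*), an eggshell gene, varied most, at 239, 104 and 167 CPM.

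Genes of the distal gonad were nearly as uniform. All 12 stem cell and Notch pathway genes reached 1 CPM and 11 were abundant. The Notch receptor gene *glp-1* was at 353, 391 and 368 CPM, and its germline targets *T27F6.4* (*sygl-1*) and *lst-1* were at 145, 121.5 and 117 and 130.4, 107 and 121 CPM. *puf-3* (777 ± 45.001 CPM) and *puf-11* (711 ± 25.097 CPM) were the highest of the list, and *sel-8*, which encodes a Notch co-activator, was the lowest at 71.7 ± 2.397 CPM. Of the 33 meiotic genes all reached 1 CPM and 14 were abundant, with a median of 93.8 CPM. The highest were *xnd-1* (314 ± 12.04 CPM), *rad-50* (269 ± 9.28 CPM), *him-17* (253 ± 19.6 CPM), the cohesin gene *rec-8* (234 ± 16.7 CPM) and the axis gene *htp-3* (204 ± 5.796 CPM). The synaptonemal complex gene *syp-3* (21.6 ± 3.32 CPM) and *him-5* (26.7 ± 3.78 CPM) were among the lowest, and the feature named *msh-4*, now classed as a pseudogene, was at 4.02 ± 0.798 CPM. All 14 germ granule genes were present and 11 were abundant, led by *pgl-1* (641, 631 and 611 CPM), *ZK1067.2* (*znfx-1*, 606 ± 31.7 CPM), *deps-1* (468 ± 25.3 CPM) and *pgl-3* (459.6 ± 20.2 CPM). The 3 members under 100 CPM, *meg-2*, *gei-12* (*meg-3*) and *C36C9.1* (*meg-4*), are X-linked, as is *meg-1*. None of the maternal, stem cell, meiotic and sperm lists has an X-linked member.

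Small RNA Argonautes, which carry guide RNAs to their targets, covered a wide range. Of 24 features 21 reached 1 CPM and 14 reached 100 CPM. *C16C10.3* (*hrde-1*), the nuclear Argonaute of the germline, led at 1901, 1897 and 1879 CPM, followed by *R06C7.1* (*wago-1*) at 1353, 1461 and 1502 CPM, *csr-1* at 761, 925 and 808 CPM and *prg-1* at 752, 816 and 742 CPM. *nrde-3* (19.2 ± 4.29 CPM) and *sago-1* (4.01 ± 1.37 CPM), which act in the soma, and the microRNA Argonaute *alg-1* (20.4 ± 2.22 CPM) were low, and the spermatogenesis Argonautes *T22B3.2* (*alg-3*) and *tag-76* (*alg-4*) were at 0.2498 ± 0.233 and 0.249 ± 0.259 CPM. Among chromatin regulators 30 of 31 reached 1 CPM and 21 were abundant. The H3K4 demethylase gene *rbr-2* (318 ± 16.07 CPM), *lin-53* (303 ± 10.98 CPM), the H3K9 methyltransferase genes *met-2* (301 ± 33.5 CPM) and *set-25* (265 ± 4.93 CPM), and the H3K36 methyltransferase gene *met-1* (288 ± 13.04 CPM) were highest. Among genes of the complex that holds SET-2, *F52B11.1* (*cfp-1*) was at 139 ± 4.08, *dpy-30* at 124 ± 1.21, *ash-2* at 113 ± 5.12 and *wdr-5* (*wdr-5.1*) at 109.6 ± 5.31 CPM. *set-30*, which is X-linked, was the one member at the floor.

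Of the 20 sex determination and dosage compensation genes 18 reached 1 CPM and 9 were abundant. *tra-1* was at 242, 263 and 229.5 CPM and *tra-2* at 128, 134 and 130.4 CPM, the genes that promote female fate. *fem-1* (119.5 ± 12.14 CPM), *fem-2* (177 ± 14.5 CPM) and *fem-3* (74.2 ± 5.52 CPM), which promote male fate, were also well covered. *fog-3*, which acts last toward sperm fate, was at 0.388, 0 and 0.22998 CPM and *her-1*, which is expressed in males, at 0.647, 0.579 and 0.45995 CPM. The *fog-2* level was 50.1 ± 4.79 CPM. Of the condensin genes shared with dosage compensation, *dpy-26* (276 ± 3.17 CPM), *mix-1* (271 ± 6.48 CPM), *dpy-28* (263 ± 23.5 CPM) and *capg-1* (255 ± 21.7 CPM) were abundant, and *dpy-27*, the subunit particular to dosage compensation, was at 28.3 ± 5.696 CPM.

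Sperm genes were nearly silent. Of 35 genes outside the *msp* family 7 reached 1 CPM and 25 were at the floor, 9 of them with 0 counts. *spe-39*, which also acts in lysosomal sorting outside sperm, was the highest at 132 ± 10.8 CPM and *tag-347* (*spe-44*), a transcription factor gene of early spermatogenesis, followed at 31.5 ± 1.897 CPM. *spe-9*, whose protein sits on the sperm surface, was at 0.776, 0.289 and 0.6899 CPM, and *spe-27*, *gsp-4* and *T21G5.4* (*smz-2*) had 0 counts. The 31 *msp* genes, which encode the major sperm protein, gave 27 counts in the 3 libraries together, with none at 1 CPM. Since the copies are near-identical and only unique reads were kept, their sum may be too low. Sperm genes with similar copies, such as *gsp-4* beside *gsp-3* and *smz-2* beside *smz-1*, may share that limit. The single-copy sperm genes do not have it.

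Markers of somatic tissues were mostly under 100 CPM, but many were detected. Of the 20 genes of the gonadal sheath, spermatheca, uterus and distal tip cell 10 reached 1 CPM, as did 13 of 18 intestine and 14 of 18 muscle markers (72.2% and 77.8%), against 40.4% of all protein-coding genes. *fln-1*, the filamin gene, was at 1457, 1539 and 1445 CPM and made up nearly all of the list's sum of 1542, 1612 and 1510.5 CPM, while *lim-7* (sheath) was at 0.906, 1.45 and 1.61 CPM, *inx-8* at 40.9, 34.7 and 28.7 CPM and *lag-2* (distal tip cell) at 0.906, 0 and 0 CPM. The cells that gave the *fln-1* reads cannot be told from these pools. Intestine markers split by level in the same way. The 6 *vit* genes, with *vit-6* on chromosome IV at 1419, 1703 and 1325 CPM, summed to 4522, 5883 and 4372 CPM, whereas the other 12 summed to 58.4, 53.5 and 44.6 CPM, with *asp-1* at 34.7, 28.1 and 29.4 CPM, *ges-1* at 0, 0.868 and 0.22998 CPM and the intestinal GATA factor *elt-2* at 0.518, 0.579 and 0 CPM. *fat-7* had 0 counts but lies wholly within another annotated gene on the same strand.

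Muscle markers summed to 465, 442 and 393 CPM, with *pat-3* (integrin) at 208 ± 6.38, *act-4* at 88.6 ± 13.9, the myosin gene *unc-54* at 46.8, 42.2 and 31.5 and *myo-3* at 5.56, 5.498 and 5.29 CPM. *hlh-1*, the muscle MyoD gene, had 0 counts, but it too lies within another annotated gene, *cyp-23A1*. Neuron markers summed to 112, 111 and 118 CPM, most of it from the synaptobrevin gene *snb-1* at 87.6, 87.96 and 89.9 CPM, and 10 of 24 reached 1 CPM. *rab-3*, *snt-1* and *tph-1* were under 0.1 CPM and *unc-86* had 0 counts. Hypodermis and cuticle markers summed to 129.5, 128 and 122.3 CPM, most of it from the nuclear receptor gene *nhr-23* at 98.7, 96.4 and 95.7 CPM, with the adult collagen *col-19* at 11.4, 11.3 and 7.36 CPM and *dpy-7* at 0.0767 ± 0.133 CPM. None of the 12 coelomocyte and pharynx markers reached 1 CPM, and they summed to 3.49, 3.47 and 2.76 CPM. The part that carried-over tissue has in any level above was not tested.

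A list of 29 genes held TGF-β pathway members, transcription factors and other genes that the study followed or discussed. In P0 gonads 18 of them lay from 1 to 10 CPM. Part of the list was chosen by the study for a rise from P0 on in these same samples. That choice was made among genes highly expressed in at least 1 sample of the series. The P0 levels of that part, and the shares at 1 CPM below, are therefore not independent of the choice. The backgrounds set beside them had no such filter. The other pathway members, the ligands among them, were added here. Of the 29 genes 24 reached 1 CPM (82.8%, against 40.4% of all protein-coding genes) and none reached 100 CPM. The median was 2.402 CPM, against 0.356 CPM over all protein-coding genes. *lin-15B* (57.2 ± 3.099 CPM), *sma-9* (34.6 ± 3.97 CPM), *puf-9* (20.7 ± 8.45 CPM), *pek-1* (19.95 ± 1.76 CPM) and the receptor genes *daf-4* (16.95 ± 0.259 CPM) and *daf-1* (15.5 ± 1.96 CPM) were the highest. The ligand genes *daf-7* and *dbl-1* were at 6.47, 3.47 and 4.5995 and 0.259, 0.289 and 0.45995 CPM, and the Smad genes *sma-2*, *sma-3* and *sma-4* at 1.83 ± 0.785, 0.379 ± 0.471 and 0.798 ± 0.349 CPM. *daf-5*, a co-factor of the Smad pathway, was at 8.02, 6.65 and 10.8 CPM. 11 of the 29 genes are X-linked, and all of those reached 1 CPM, against 30.3% of all X-linked protein-coding genes. The heat-inducible chaperone genes *hsp-16.2* and *hsp-70* were low in these animals, at 0.326 ± 0.284 and 0.519 ± 0.0594 CPM. *hsp-12.6*, a small heat shock gene, had 0 counts. The also stress-inducible *hsp-60* (1335 ± 14.2 CPM) and *hsp-6* (1062 ± 68.8 CPM) of mitochondria and *hsp-4* (591 ± 3.26 CPM) of the ER were abundant. So was *sip-1* (1353, 868 and 1251 CPM), a small heat shock gene of oocytes and embryos.

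**Figure D4:**
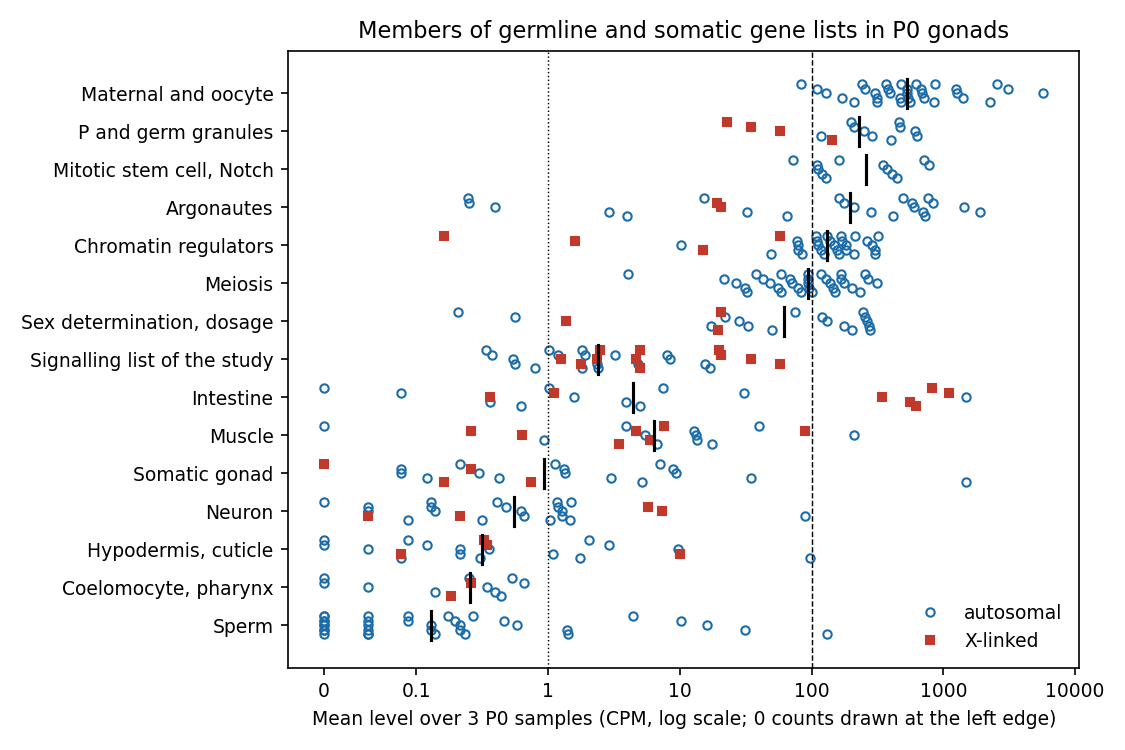
Mean level over the 3 P0 samples (CPM, log scale) of each member of 15 gene lists, with red squares for X-linked and open blue circles for autosomal genes, a black bar at each list's median, a dotted line at 1 CPM and a dashed line at 100 CPM. Medians run from 527 CPM for maternal and oocyte genes to 0.129 CPM for sperm genes.

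Gene families sorted by name prefix fell at both ends of the range. Of the 76 families with at least 20 members, 4 had all members at 1 CPM or more: *rps* (31 genes), *vps* (25 genes of vesicle sorting), *npp* (22 nuclear pore genes) and *mdt* (20 genes, named for Mediator). *dnj* followed, with 28 of 29 J-domain chaperone genes. The families differed in level, since all 31 *rps* and 21 of 22 *npp* genes were abundant, against 10 of 25 *vps* and 4 of 20 *mdt* genes. *npp-9* was at 1259 ± 28.1 CPM and *npp-10* at 946 ± 15.8 CPM, while *vps-39* led its family at 267 ± 26.7 CPM and *mdt-28* at 379.8 ± 25.4 CPM, ahead of *mdt-17* at 239.9 ± 21.6 CPM. *mdt-28* is now named *plin-1*, for a perilipin of lipid droplets, and is not a Mediator gene by that name. At the other end 12 families had no member at 1 CPM: *msp*, the acetylcholine receptor genes *acr* (21), *fipr* (29), *oac* (56), *scl* (25) and the chemoreceptor families *sra*, *srab*, *sre*, *srj*, *sru*, *srv* and *srw*. *srw* is the largest of them, with 109 genes, 108 at the floor and 127 counts in all.

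Chemoreceptors as a whole numbered 1308 genes, of which 16 reached 1 CPM and 436 had no count in any library. *sri-40* was the highest at 18.9, 24.3 and 17.9 CPM, ahead of *srg-66* at 9.45, 5.498 and 5.06 CPM and *srxa-10* at 3.62, 5.21 and 4.14 CPM. Of 112 neuropeptide and insulin-like genes 6 reached 1 CPM, led by *nlp-36* at 10.03 ± 1.42 CPM. Collagens of the *col* family reached 1 CPM in 41 of 156 cases without any at 100 CPM, and *col-122* was the highest at 73.1, 56.7 and 40.9 CPM.

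Other large families were low but held single abundant members. Of 239 C-type lectin genes 23 reached 1 CPM, yet *clec-87* stood at 1123, 826 and 951 CPM, *clec-88* at 256, 222 and 249 CPM and *clec-91* at 162, 128 and 131 CPM, with the next member, *clec-90*, at 13.8 ± 0.736 CPM. Nuclear hormone receptors reached 1 CPM in 48 of 268 cases, with *nhr-66* (110.4, 123 and 114.8 CPM), *nhr-23* and *nhr-49* (88.4, 93.5 and 94.5 CPM) ahead by CPM. Per length *nhr-66* stood at 33.7 ± 3.02 TPM, below *nhr-86* at 77.0 ± 9.69 TPM and *nhr-49* at 60.7 ± 4.01 TPM. Among 46 genes of the homeobox prefix *ceh*, *ceh-100* (256, 313 and 286 CPM), *ceh-44* (now *cone-1*, 133, 146 and 152 CPM) and *ceh-38* (131, 139 and 149.7 CPM) were abundant, and 28 were at the floor. The F-box families counted 47 of 321 genes at 1 CPM, led by *fbxa-215* (239 ± 22.7 CPM). *ptr-2* of the patched-related genes (456 ± 20.8 CPM, with 2 of 23 members at 1 CPM), *math-33* (477 ± 24.3 CPM) and *gcy-28* (127 ± 13.8 CPM) stood out within theirs in the same way.

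**Figure D5:**
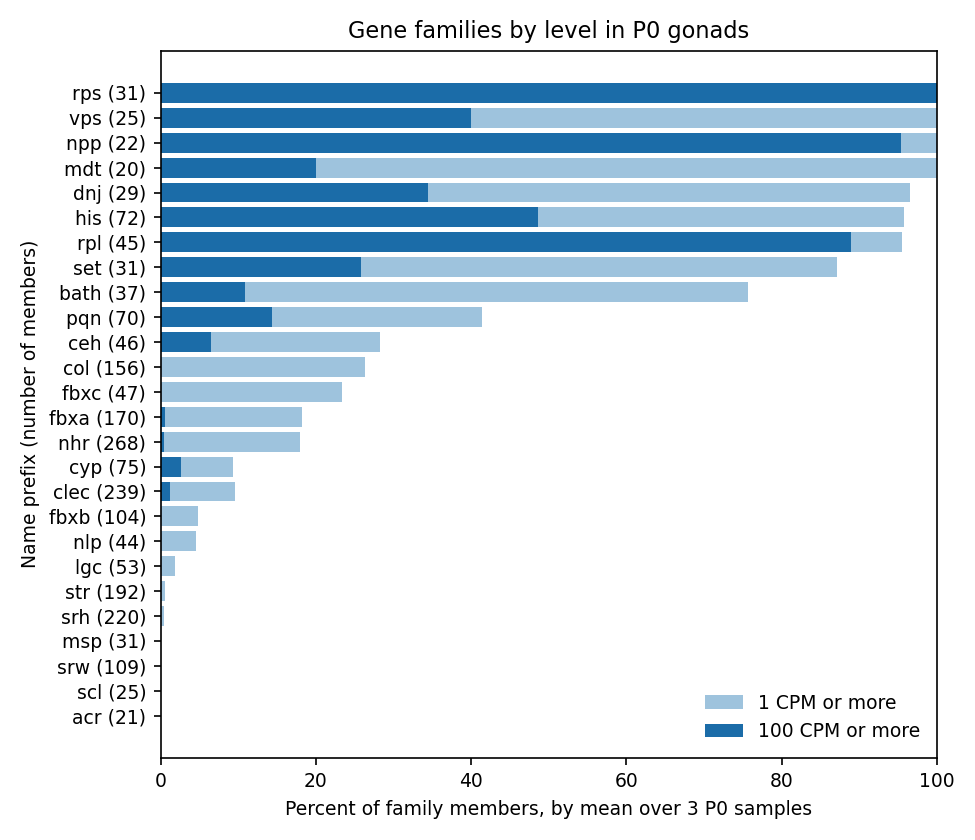
Percent of the members of 26 gene families, by name prefix with the number of members, at a mean of 1 CPM or more (light bars) and 100 CPM or more (dark bars) in the P0 samples. All *rps*, *vps*, *npp* and *mdt* genes reach 1 CPM, and no *msp*, *srw*, *scl* or *acr* gene does.

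The 3 samples agreed closely for most genes. Over the 5584 features with a mean of at least 10 CPM the median coefficient of variation (CV, the SD as percent of the mean) was 7.58%, where counting error alone gives 5.21%, and 65.96% of them had a CV under 10%. Across those features Pearson's r of log2 levels was 0.985 between replicates 1 and 2, 0.991 between 1 and 3 and 0.991 between 2 and 3, a description over genes, which are not independent. No 2 libraries were alike within counting noise. Steady genes included *gld-2*, which encodes a poly(A) polymerase, at 352, 351 and 350.0 CPM, *pie-1* at 129, 129 and 129 CPM and *mcm-7*, a DNA replication gene, at 740.0, 743 and 739 CPM.

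Replicate 1 accounted for most of the large spreads. Of 38 features with a CV over 40%, 34 were highest in replicate 1, against 1396 of all 5584. 11 of the 38 were snoRNA or snRNA genes and 13 were X-linked, against 60 and 270 of all 5584. The snoRNA gene *T04A8.17* had the largest CV, at 30.02, 6.94 and 4.83 CPM from 232, 24 and 21 counts. *C26H9A.2* was at 96.1, 21.4 and 21.2 CPM, the snoRNA gene *K02C4.8* at 34.8, 9.84 and 10.6 CPM, *F54D7.7* (now *rpl-41.2*) at 118, 30.7 and 41.2 CPM, *C18D4.6* at 22.3, 6.08 and 8.97 CPM and *W09B7.2* at 20.6, 8.102 and 5.98 CPM, each with a high replicate 1 and 2 lower replicates. *W03G1.4* went the other way, at 8.799, 32.99 and 46.5 CPM. *F47B10.1* (*suca-1*, 112, 35.01 and 52.4 CPM), *hmit-1.2* (19.2, 7.23 and 7.36 CPM) and *ucr-2.1* (19.2, 6.65 and 8.51 CPM) completed the 10. The biological spread estimated by edgeR, as a coefficient of variation, was 8.48% over the 3 samples and 6.11% without replicate 1, 7.27% without replicate 2 and 11.01% without replicate 3. It was thus lower without replicate 1 and also without replicate 2. Replicate 1 was the deepest and bears another library-name prefix than replicates 2 and 3, so the sample and the run it was made in cannot be told apart.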

How the data were processed

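RNA was measured in gonads of 12 samples, and the 3 P0 samples were used here. Per the paper's methods, total RNA was depleted of ribosomal RNA and the authors used TopHat2 and the WS220 transcriptome for mapping, kept reads with a unique place, removed reads on ribosomal RNAs and counted the rest per gene with HTSeq. The deposited values are whole counts without normalization. Tool versions and whether counting used the strand are not given in the sources used here, so overlapping and antisense genes are uncertain. No mitochondrial gene was counted. The authors also deposited a table with normalized signal (counts divided by DESeq2 size factors over the 12 samples), log2 fold changes and adjusted p-values of their group comparisons. Only its gene names, identifiers and positions were used, and its P0 columns equalled the counts divided by 1 factor per sample within 1%. Those factors were 1.45, 0.6703 and 0.834, against 1.21, 0.559 and 0.696 recomputed over the 12 samples, and the cause of the gap was not tested. 0 sample columns remained without a match.

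Reads on no feature (12.8%, 14.4% and 13.6% of the counted rows) and ambiguous reads (1.79% to 2.03%) were left out of the totals. CPM were computed from the total on genes. TPM used the merged exonic length of Ensembl 115 gene models matched by WormBase gene identifier, over 19224 protein-coding genes. Biotypes were found for 44884 of 45461 features. The deposited positions are not those of WBcel235 and were not converted. Apart from the check of the *set-2* level against the other samples, no group was compared, and no test was run. Spread was estimated with edgeR 4.0.16 in R 4.3.3 (intercept only), which was tested on simulated data, and values were computed with Python 3.11.15, pandas 2.3.3 and numpy 2.4.6. Floors cover counting error only, since reads of amplified libraries are not independent molecules.

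Groups came from the sample titles. The text names the 20 features of highest CPM, the 10 genes of highest TPM, the 3 leading protein-coding genes of each chromosome and 10 of the X, the families of at least 20 members with the highest and lowest shares at 1 CPM, 2 to 6 or more members of each list and pair, and the 10 features of largest CV. Other named genes were chosen after their values were seen. The samples, lists and pairs were chosen with earlier results of these data known. Alternatives were leaving out each replicate, protein-coding genes only, TMM and DESeq2 1.42.0 scaling, thinning to the shallowest library, other limits, gene span as length, and leaving out the most abundant features.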

Additional observations from a re-analysis of the deposited data

How the results depend on the processing

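No paired analysis was possible because 1 group was described and no test was run. Features with at most 3 counts numbered 8356 when protein-coding genes alone were taken, against 33272, by construction, and the maternal and oocyte list held 3.01% of the protein-coding counts, against 2.89% of all counts. With a limit of 10 CPM, 9.32% of X-linked and 30.7% of autosomal genes were called expressed and 1 chemoreceptor gene remained of 16. With a limit of 0.1 CPM the shares were 60.6% and 67.0%, and with any count also 60.6% and 67.0%, since 1 count exceeds 0.1 CPM in each library. The X-linked share of protein-coding counts, 1.44%, was 1.56% without the 20 most abundant features and 1.08% without the *vit* genes, an alternative chosen after seeing the data. TMM and DESeq2 scaling, thinning, requiring the limit in every sample, gene span as length and leaving out each replicate moved no count by over 1.5 times and no share or ratio by more than the spread between samples. Without single replicates, features at 1 CPM or more numbered 8360 to 8459, the X-linked share was 1.39% to 1.47% and the ratio of autosomal to X-linked median TPM was 12.2 to 13.8. Depth limits the statements on silence: at the depth of replicate 2, features with any count fell from 17823 to 14492 in replicate 1. Genes with near-identical copies and genes within others may be undercounted.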

Other observations

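Of the 2264 abundant protein-coding genes 1430 (63.2%) carried a gene name of letters and number in the deposited annotation, against 42.98% of all protein-coding genes. The highest of those listed by a sequence name alone, a set looked at after its values were seen, included genes of energy metabolism and splicing. *H28O16.1*, now *atp-1* of the mitochondrial ATP synthase, was at 1897, 1955 and 1854 CPM, *F25H2.5* (*ndk-1*, a nucleoside diphosphate kinase gene) at 1769.8, 1469 and 1519.9 CPM, *T22F3.3* (*pygl-1*, glycogen phosphorylase) at 1632, 1487 and 1556 CPM and *Y46G5A.4* (*snrp-200*, a spliceosome helicase) at 1370.0, 1459 and 1397 CPM. *Y37E3.8*, with no newer name, was at 1941, 1447 and 1618 CPM and at 4853 TPM, in the range of the ribosomal protein genes.

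Some prefix families in the middle of the range held abundant members as well. Of 31 *set* genes, which share a SET domain with *set-2*, 27 reached 1 CPM, and *set-16* (706 ± 13.2 CPM), *set-9* (633 ± 14.5 CPM), *set-26* (349.9 ± 18.3 CPM) and *set-25* were above *set-2* (183 ± 10.297 CPM) on the CPM scale. These animals carry 1 deletion allele of *set-2*, and its part in that order was not tested. *let-711* (1489 ± 141 CPM), *pqn-59* (1379.9 ± 86.3 CPM), *acs-13* (936 ± 28.3 CPM) and *ztf-7* (733 ± 16.97 CPM) led theirs. Among X-linked features that are not protein-coding, *Y73B3A.23* was at 730.2, 369 and 648 CPM and *Y73B3A.18*, classed as a pseudogene, at 498, 476 and 497 CPM.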
